A study of Mus musculus with 19 samples.

Results

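The genes described are the collagen chains and the enzymes and chaperone that fold, crosslink and trim them, in mouse tibialis anterior muscle, the muscle along the shin that lifts the foot. They were taken by name from the genes whose probe sets carried exactly 1 gene symbol in the platform annotation. Every symbol made of Col, a number, the letter a and a number was kept, apart from a single chain that was left out by rule. To these were added the lysyl oxidases Lox, Loxl1 and Loxl3, the lysyl hydroxylases Plod1, Plod2 and Plod3, the prolyl hydroxylase subunits P4ha1 and P4ha2, and Pcolce, Bmp1 and Serpinh1. This gave 46 of 12393 genes, of which 35 were chains and 11 were enzymes or chaperones. Loxl2 and Adamts2, which the rule also names, had no probe set of their own symbol alone in the table used and were not analysed here.

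RNA was measured on 19 Affymetrix arrays, 12 h after 50 eccentric contractions, that is, contractions during which the muscle is lengthened. KO_Aged (4 arrays) came from Des(-/-) mice of 12 to 14 months and KO_Adult (5 arrays) from Des(-/-) mice of 7 to 9 weeks. WT_Aged (5 arrays) and WT_Adult (5 arrays) came from wild-type mice of the same ages. All were on a 129/SVE background and all had been exercised, so no group shows muscle at rest. Desmin, which the knockout mice lack, is the intermediate filament protein that ties neighbouring myofibrils together at their Z-discs. Whether each array of a group was a separate animal is not stated in the labels. The p-values therefore describe how far these arrays scatter, some of which may be technical.

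Collagens are the main proteins of the connective tissue around muscle fibres. Types I, III and V form fibrils, type IV forms the network of the basement membrane, type VI forms beaded filaments beside it, and types XV and XVIII link basement membranes to the surrounding matrix. New chains are hydroxylated on proline by P4ha1 and P4ha2 and on lysine by the Plod enzymes, and are folded with the chaperone Serpinh1 (HSP47) in the endoplasmic reticulum. Outside the cell Bmp1 cuts off the ends of the procollagen, helped by Pcolce, and Lox and its relatives crosslink the fibrils. In muscle most of these genes are used mainly by fibroblasts, and type IV also by endothelial cells and muscle fibres. In RNA of whole muscle, fewer cells of a type and less RNA per cell cannot be told apart.

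The stretches before the annotated starts of 3 members are shown, because these members belong to one pathway and sit in separate functions: Col1a2 (a chain of type I), Col3a1 (the chain of type III) and Serpinh1 (their chaperone). They are the 250 bases upstream in RefSeq's annotation of GRCm38.p6, written 5′ to 3′ in the direction of the gene, with capitals marking 3 short motifs searched on both strands. The motif CCAAT is known as the CCAAT box, the motif TATAAA as a TATA box and the motif GGGCGG as a GC box. The Col1a2 stretch is chr6:4505368-4505617 on the plus strand, that of Col3a1 is chr1:45311288-45311537 on the plus strand and that of Serpinh1 is chr7:99353240-99353489 on the minus strand.
Col1a2: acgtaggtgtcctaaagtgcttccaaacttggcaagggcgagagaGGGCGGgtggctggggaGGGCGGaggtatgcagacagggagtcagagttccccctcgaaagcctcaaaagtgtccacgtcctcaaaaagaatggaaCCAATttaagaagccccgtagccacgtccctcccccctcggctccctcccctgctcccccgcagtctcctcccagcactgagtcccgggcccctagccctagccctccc
Col3a1: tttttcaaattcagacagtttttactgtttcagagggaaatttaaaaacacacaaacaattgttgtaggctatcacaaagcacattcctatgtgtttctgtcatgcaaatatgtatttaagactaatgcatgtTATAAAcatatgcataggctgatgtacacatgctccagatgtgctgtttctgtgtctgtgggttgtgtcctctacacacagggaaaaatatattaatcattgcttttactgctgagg
Serpinh1: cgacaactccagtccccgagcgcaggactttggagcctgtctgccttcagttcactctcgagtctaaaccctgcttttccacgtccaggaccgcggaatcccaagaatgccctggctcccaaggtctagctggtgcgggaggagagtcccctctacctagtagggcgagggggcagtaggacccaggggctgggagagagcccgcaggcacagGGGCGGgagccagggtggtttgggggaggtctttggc
Col1a2 held a CCAAT beginning 109 bases before the start and GGGCGG beginning 205 and 188 bases before it. Col3a1 held TATAAA 117 bases before the start and neither of the other motifs, and Serpinh1 held GGGCGG 37 bases before it. Of the 46 members 33 had such a stretch, 20 of them among the members tested below. The GC box motif lay in 14 of these 20, against 32.9% of the stretches of 27025 genes. The CCAAT motif lay in 8 of the 20, against 34.5% of all genes, and the TATA motif in 2 of the 20, against 13.0%. Over all 33 members the GC box motif lay in 20, CCAAT in 12 and TATAAA in 6. The 27025 genes were not filtered by brightness as the 20 were, so these sets are unlike. In the 3 stretches shown no capitals of different motifs overlap. These matches are letters in a window and were not tested as binding sites. Col4a1 and Col4a2 lie head to head on chromosome 8, with annotated starts 21 bases apart. Col6a1 and Col6a2 are neighbours on chromosome 10, as are Col3a1 and Col5a2 on chromosome 1.

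Values are the deposited MAS5 intensities, on a linear scale, and each gene is represented by its probe set of highest mean. Desmin itself read 72.7 to 636 on KO_Aged arrays and 311 to 879 on KO_Adult arrays, against 10700 to 12700 on WT_Aged and 13700 to 22300 on WT_Adult arrays, so its values went with the genotype labels. The arrays fell into a technical split. The dap poly-A control, a bacterial RNA that laboratories can add to a sample, had signal on 8 arrays (574 to 1360): the 5 of WT_Aged and replicates 3, 4 and 5 of KO_Adult. It read 2.05 to 22 on the other 11, and 18S ribosomal RNA split the arrays the same way (5840 to 19700 and 29.1 to 181). Only KO_Adult has arrays on both sides. On KO_Aged replicates 2 and 3 the Gapdh 3′ to 5′ ratio, a sign of RNA quality, was over 3, and on the others it was 0.766 to 0.968. The summed level of 5 muscle fibre markers (Acta1, Ckm, Myh4, Mb and Tnnt3) was 131000 to 152000 in KO_Aged, 114000 to 146000 in KO_Adult, 105000 to 136000 in WT_Aged and 107000 to 204000 in WT_Adult, and these markers were present on every array.

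Of the 46 members, 29 were bright enough to be tested: all 11 enzymes and chaperones, 6 of 8 fibril-forming chains, both tested chains of type IV (Col4a1 and Col4a2, of 6), all 3 chains of type VI, both of types XV and XVIII, 3 of 9 fibril-associated chains and 2 of 7 others. The 17 members left out were dim. Over all their arrays they read 1 to 135, and 318 of their values were under 100. Among them were the cartilage chains Col9a1, Col9a2, Col9a3, Col10a1, Col11a1 and Col11a2 and the type IV chains Col4a3, Col4a4, Col4a5 and Col4a6. Col12a1, Col9a1 and Col20a1 lay just below the limit, with mean intensities of 56.58, 54.18 and 70.21, and Bmp1, Plod2 and Col22a1 just above it, with 119.8, 132.4 and 120.3.

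Of the fibril-forming chains Col1a1 varied most between arrays. It encodes the main chain of type I collagen and lies at chr11:94936224-94953042 (GRCm38.p6). Col1a1 read 528, 1650, 1170 and 1040 on KO_Aged arrays. On KO_Adult arrays it read 106, 83.8 and 160 where the poly-A controls gave signal and 2180 and 769 where they did not. It read 35.6, 76.8, 93.2, 78.7 and 70.3 on WT_Aged arrays and 2350, 2310, 3160, 1620 and 1220 on WT_Adult arrays. All 8 arrays with control signal were at 160 or below and all 11 without it at 528 or above, whatever their genotype or age.

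Col1a2, the partner chain of type I, read 2190, 4140, 3920 and 3520 on KO_Aged arrays. On KO_Adult arrays it read 1830, 2690 and 5280 with controls and 6870 and 6850 without. WT_Aged arrays read 2300, 1220, 2760, 2450 and 1590, and WT_Adult arrays 5610, 6380, 5790, 3580 and 3170. WT_Aged lay below WT_Adult with no overlap, while KO_Adult reached from within the WT_Aged range to above the WT_Adult one. Col3a1, the chain of type III, which is plentiful in young and repairing tissue, read 6090, 9130, 9530 and 9210 on KO_Aged arrays, and on KO_Adult arrays 2870, 3640 and 9520 with controls and 6720 and 9940 without. It read 2340, 2090, 2870, 3150 and 1710 on WT_Aged arrays and 4270, 5790, 5110, 5770 and 4880 on WT_Adult arrays. Every KO_Aged array was above every WT array of either age. KO_Adult replicate 5, an array with controls, stood with the arrays without them for Col3a1 (9520) and near them for Col1a2 (5280), but not for Col1a1 (160).

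The type V chains, which set the diameter of type I fibrils, moved over a smaller range. Col5a1 read 454, 684, 781 and 470 on KO_Aged arrays, and on KO_Adult arrays 234, 284 and 340 with controls and 351 and 467 without. It read 356, 323, 392, 252 and 254 on WT_Aged arrays and 507, 692, 517, 475 and 406 on WT_Adult arrays. All KO_Aged values exceeded all WT_Aged values. Col5a2 read 901, 1410, 1120 and 999 on KO_Aged arrays, and on KO_Adult arrays 320, 529 and 970 with controls and 886 and 941 without. It read 445, 369, 616, 647 and 415 on WT_Aged arrays and 688, 830, 810, 800 and 755 on WT_Adult arrays. With this probe set the wild-type ages did not overlap, nor did the aged genotypes. The dimmer Col5a2 probe set, 1450625_at, overlapped in both pairs, at 153 to 385 in KO_Aged, 133 to 240 in WT_Aged and 99.4 to 241 in WT_Adult. On KO_Adult arrays the dimmer one read 195, 202 and 409 with controls and 129 and 100 without. Col5a3 read 335 to 530 in KO_Aged, 346 to 611 in KO_Adult, 309 to 417 in WT_Aged and 507 to 818 in WT_Adult.

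**Figure D1:**
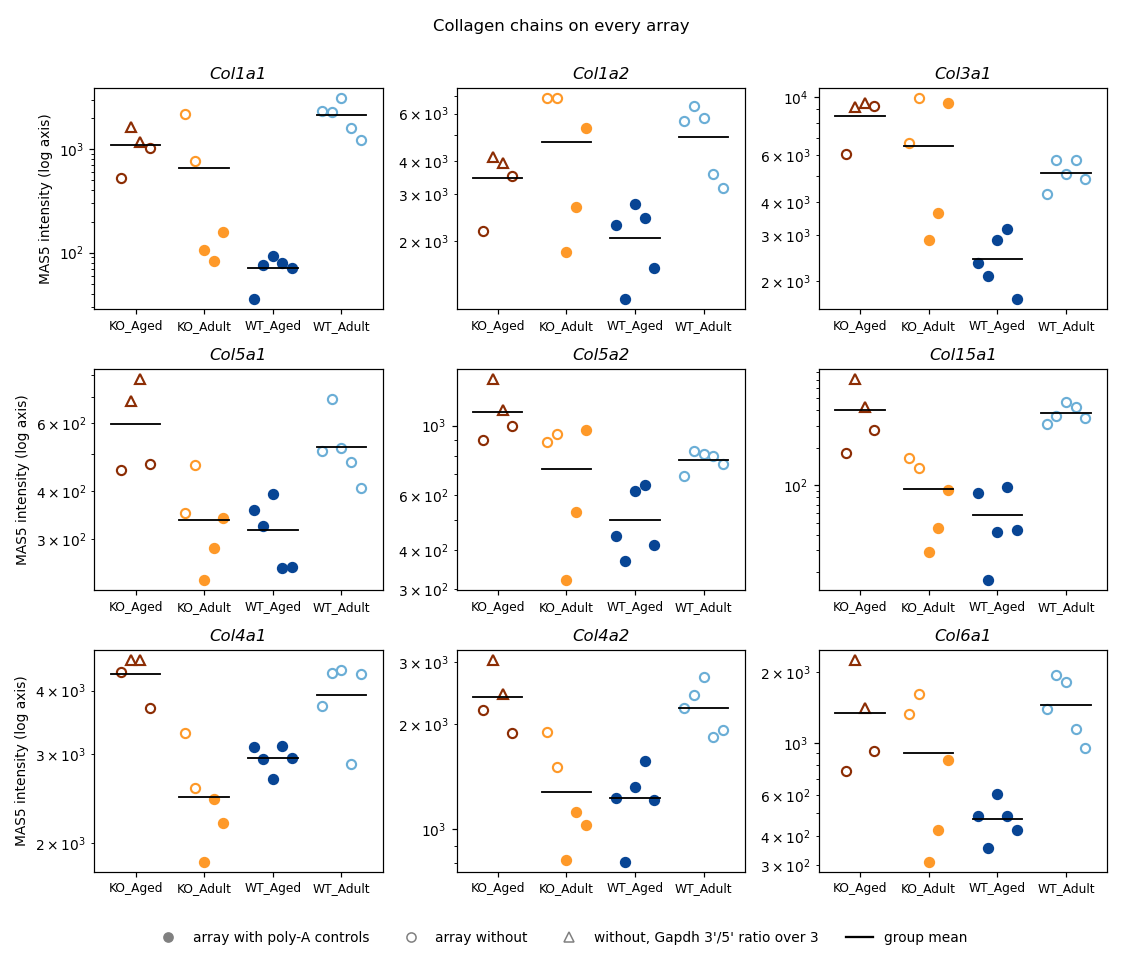
Deposited MAS5 intensity (log axis) of collagen chains on each of the 19 arrays, by group; filled circles are arrays with poly-A control signal, open circles those without, triangles those with a Gapdh ratio over 3, and bars are group means. For Col1a1 every array with control signal is at 160 or below and every array without it at 528 or above, and for Col3a1 the 4 KO_Aged arrays lie above all WT arrays.

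The paired type IV genes moved over a smaller range than Col1a1, with Col4a1 read here from its brighter probe set. The dimmer one, 1426348_at, moved further and is described below. Col4a1 read 4350, 4590, 4590 and 3690 on KO_Aged arrays, and on KO_Adult arrays 1840, 2440 and 2190 with controls and 3300 and 2570 without. It read 3090, 2930, 2680, 3110 and 2940 on WT_Aged arrays and 3730, 4330, 4390, 2870 and 4320 on WT_Adult arrays. KO_Aged lay above both KO_Adult and WT_Aged with no overlap. Col4a2 read 2190, 3040, 2430 and 1890 on KO_Aged arrays, and on KO_Adult arrays 816, 1120 and 1030 with controls and 1900 and 1510 without. It read 1230, 810, 1320, 1570 and 1210 on WT_Aged arrays and 2220, 2420, 2720, 1840 and 1920 on WT_Adult arrays. WT_Aged lay below both KO_Aged and WT_Adult with no overlap.

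Col15a1, the chain of type XV, whose loss weakens muscle and small vessels in mice, read 180, 709, 422 and 278 on KO_Aged arrays. On KO_Adult arrays it read 29.1, 45 and 91.6 with controls and 166 and 137 without. It read 86.5, 17.3, 42, 96.6 and 43.7 on WT_Aged arrays and 310, 361, 467, 420 and 344 on WT_Adult arrays. Unlike for Col1a1, the 2 KO_Adult arrays without controls were also below every WT_Adult array. Its relative Col18a1 read 76.1 to 272 in KO_Aged, 70.3 to 144 in KO_Adult, 130 to 185 in WT_Aged and 142 to 259 in WT_Adult, with overlap between any pair of groups.

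The type VI chains make the filaments that anchor the basement membrane and, when mutated, cause muscle disease. Col6a1 read 755, 2250, 1410 and 924 on KO_Aged arrays, and on KO_Adult arrays 311, 424 and 843 with controls and 1330 and 1620 without. It read 487, 356, 604, 489 and 425 on WT_Aged arrays and 1390, 1950, 1820, 1150 and 946 on WT_Adult arrays. Its neighbour Col6a2 read 832, 2230, 1570 and 968 on KO_Aged arrays, and on KO_Adult arrays 313, 511 and 886 with controls and 1690 and 1840 without. WT_Aged arrays read 788, 712, 1040, 1020 and 626 for Col6a2, and WT_Adult arrays 2340, 3330, 2320, 1570 and 1080. For both genes the KO_Adult arrays split cleanly by control signal, and WT_Aged lay below WT_Adult with no overlap. Col6a3 read 1300, 2880, 2010 and 1410 on KO_Aged arrays, and on KO_Adult arrays 820, 1180 and 1560 with controls and 1400 and 2140 without. Its WT_Aged values of 1610, 1230, 1770, 1440 and 860 overlapped its WT_Adult values of 1810, 2060, 2350, 2180 and 1520.

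Among the enzymes and the chaperone, Serpinh1 read 2100, 1810, 1830 and 1990 on KO_Aged arrays. On KO_Adult arrays it read 668, 690 and 648 with controls and 1410 and 2080 without. It read 1340, 1890, 2560, 3380 and 1740 on WT_Aged arrays and 2340, 2880, 3550, 2800 and 1480 on WT_Adult arrays. With this probe set, 1450843_a_at, the 3 KO_Adult arrays with controls were the lowest of all 19, below the WT_Aged arrays that carried the same controls. With 1456733_x_at they read 865, 763 and 955 and were not the lowest, as WT_Adult replicate 1 read 570. Plod3, a lysyl hydroxylase that also adds sugars to collagen, read 433, 258, 543 and 346 on KO_Aged arrays, and on KO_Adult arrays 298, 139 and 195 with controls and 279 and 274 without. It read 327, 271, 269, 371 and 203 on WT_Aged arrays and 480, 517, 616, 705 and 631 on WT_Adult arrays. All 5 KO_Adult arrays were below all WT_Adult arrays, with or without controls. Plod1 read 367, 313, 363 and 352 on KO_Aged arrays, and on KO_Adult arrays 217, 180 and 242 with controls and 370 and 428 without. It read 171, 160, 203, 251 and 226 on WT_Aged arrays and 592, 482, 723, 514 and 514 on WT_Adult arrays. For Plod1 too, every KO_Adult array was below every WT_Adult array.

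Lox, the lysyl oxidase that starts the crosslinks, ran against the chains in wild-type muscle with its brightest probe set. It read 1290, 264, 666 and 682 on KO_Aged arrays, and on KO_Adult arrays 259, 451 and 488 with controls and 207 and 189 without. It read 718, 454, 747, 651 and 1260 on WT_Aged arrays and 189, 135, 224, 231 and 482 on WT_Adult arrays. Only replicate 5 of WT_Adult (482) came above the lowest WT_Aged array (454) on this scale, and after normalization no array of WT_Adult did. Loxl1 read 1270, 1140, 1500 and 1070 on KO_Aged arrays, and on KO_Adult arrays 429, 505 and 447 with controls and 933 and 936 without. It read 921, 825, 903, 1060 and 687 on WT_Aged arrays and 979, 1240, 1330, 791 and 844 on WT_Adult arrays. As for Serpinh1, the KO_Adult arrays with controls were the lowest of all.

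Pcolce, the enhancer of procollagen cutting, read 1660, 3970, 3630 and 2620 on KO_Aged arrays, and on KO_Adult arrays 981, 1480 and 1280 with controls and 2850 and 3710 without. It read 1760, 1350, 1830, 2280 and 1370 on WT_Aged arrays and 2160, 3070, 1700, 1120 and 993 on WT_Adult arrays. The wild-type ages overlapped widely with this probe set. P4ha1 read 570, 871, 653 and 601 on KO_Aged arrays, and on KO_Adult arrays 384, 428 and 398 with controls and 358 and 520 without. It read 526, 616, 733, 779 and 578 on WT_Aged arrays and 407, 675, 935, 729 and 535 on WT_Adult arrays. On this scale and with this probe set every KO_Adult array was below every KO_Aged and every WT_Aged array, while WT_Adult overlapped all other groups. After normalization, in log2, KO_Adult replicate 2 (9.143) was above KO_Aged replicate 1 (9.065) and WT_Aged replicate 1 (9.035). P4ha2 read 363 to 657 in KO_Aged, 313 to 416 in KO_Adult, 401 to 487 in WT_Aged and 501 to 591 in WT_Adult.

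**Figure D2:**
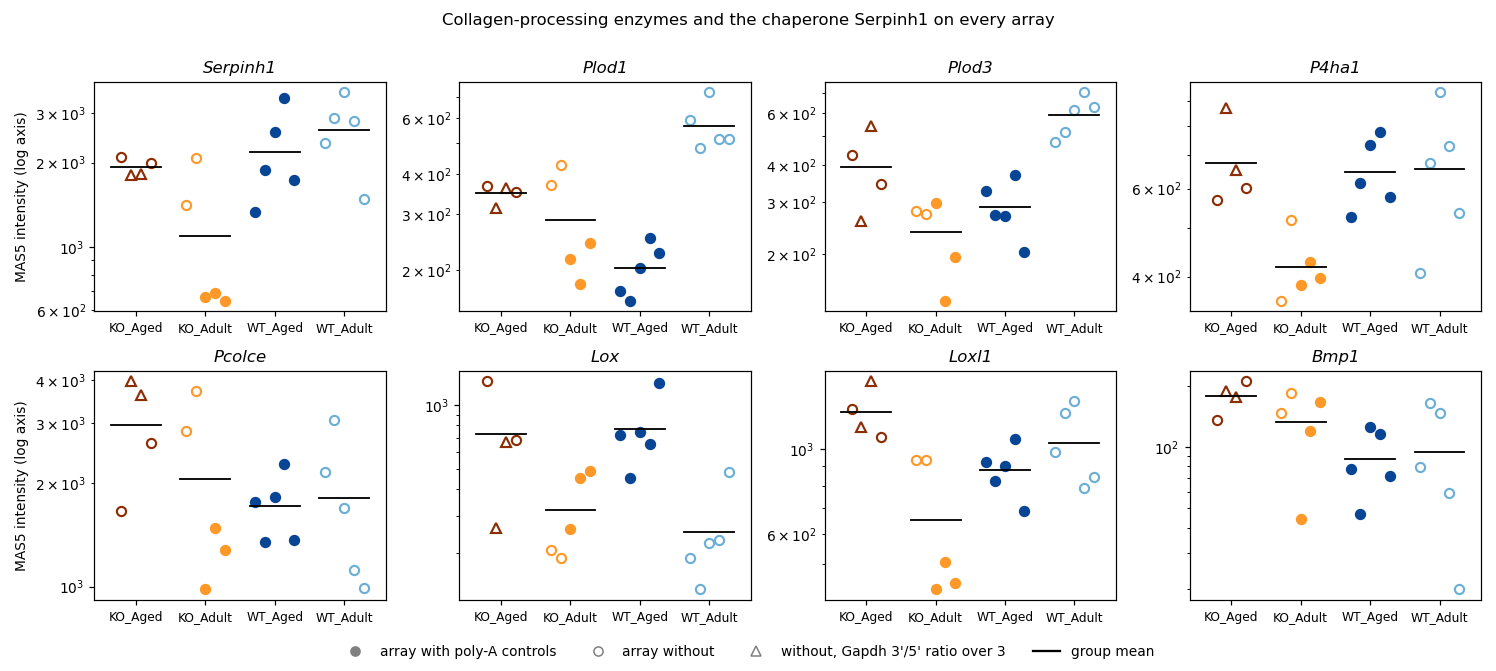
Deposited MAS5 intensity (log axis) of processing enzymes and the chaperone Serpinh1 on each of the 19 arrays, by group; symbols and bars are as in the plot of the chains. Lox was higher on WT_Aged than on WT_Adult arrays, Plod1 and Plod3 were lower on all KO_Adult than on all WT_Adult arrays, and Serpinh1 (probe set 1450843_a_at) and Loxl1 were lowest on the 3 KO_Adult arrays with controls.

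Within KO_Adult, at 1 genotype and 1 age, the arrays with poly-A controls were compared with those without, to measure what moves with the split. Differences here and below are on the log2 scale of the normalized values. More members fell than rose with the controls: 8 of 29 fell and 1 rose (limma, adjusted p under 0.05), against 13% of all 7436 tested genes lower and 13.4% higher. The median log2 difference was -0.67 over the members, against -0.13 over all genes. Col1a1 fell by 3.42 (SE 0.50, adjusted p 0.000708), Col6a2 by 1.76, Col6a1 by 1.61 and Col4a2 by 0.82. Of the enzymes and the chaperone, Pcolce fell by 1.37, Serpinh1 by 1.36 (read from 1450843_a_at), Loxl1 by 1.08 and Plod1 by 0.93. Col7a1, the chain of the anchoring fibrils, rose by 2.38 (SE 0.56, adjusted p 0.00772), reading 613, 603 and 537 with the controls and 101 and 103 without. The other 20 members passed in neither direction, among them Col15a1 (-1.46, adjusted p 0.0633), Col1a2 (-1.13, 0.0524) and Col3a1 (-0.71, 0.16). Markers of other cells moved with the split too. Of the 4 tested tendon markers 2 fell. Sums over all 6 tendon markers measured, tested or not, were 2360 to 3040 with the controls and 5030 to 5500 without. Of 8 fibroblast markers 2 fell, with sums of 11400 to 17800 with and 18700 to 19500 without. Of 6 endothelial markers 3 fell and 1 rose, with sums of 1370 to 1480 with and 1770 to 2080 without, and the adipocyte marker Adipoq fell by 3.04. Smooth muscle and pericyte sums went the other way, at 6250 to 8240 with and 4420 to 5110 without. None of the 4 tested markers of these cells passed, and their median log2 difference was -0.35. The values rest on 3 arrays against 2, and neither what made the split nor the part of these cells was tested.

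Signs across the members were then set beside this split, using comparisons that share no array with it. Between WT_Aged and WT_Adult, where all aged arrays have controls and no adult array has, 24 of 29 members (82.8%) differed in the same direction as KO_Adult arrays with against without controls, and so did 75.9% of all tested genes. Between KO_Aged and WT_Aged, where the knockout arrays lack the controls, 26 of 29 members (89.7%) differed in the opposite direction, as did 69.1% of all genes. Genotype or age and the control split cannot be told apart in these 2 comparisons except through the 5 KO_Adult arrays, by a fit that carries the split as a term. Its values are given beside each result.

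**Figure D3:**
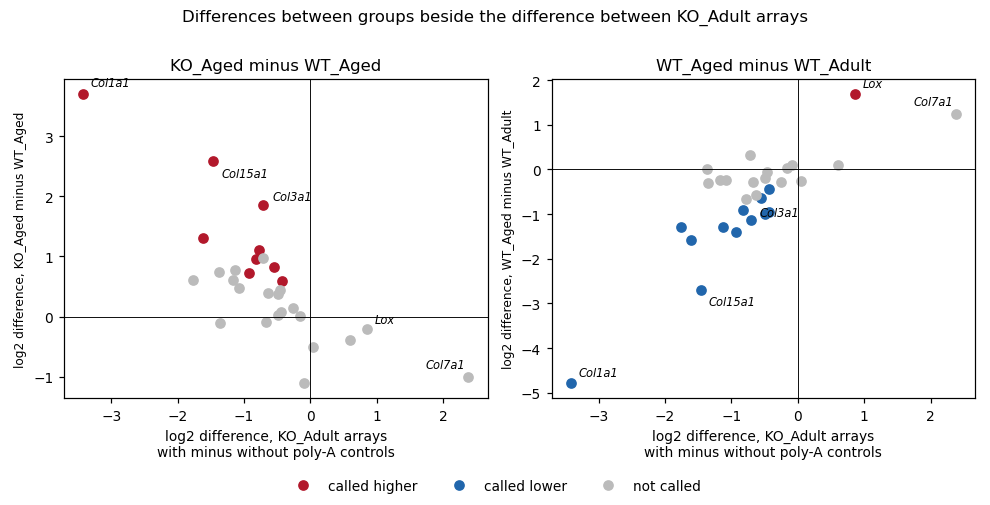
Log2 difference of each of the 29 tested members for KO_Aged minus WT_Aged and for WT_Aged minus WT_Adult (vertical axes), against the log2 difference of KO_Adult arrays with minus without poly-A controls (horizontal axis). In the panel of the aged genotypes 26 of 29 members lie in the quadrants of opposite sign, and in the wild-type panel 24 of 29 lie in those of the same sign.

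The first genotype comparison was made in adult mice, KO_Adult against WT_Adult. Some chains and enzymes were lower without desmin: 8 of 29 members fell and none rose (limma, adjusted p under 0.05), against 9.37% of all tested genes lower and 7.22% higher. At an unadjusted p under 0.05, 15 members were lower and 0 higher, with no share over all genes given at this rule. The median log2 difference was -0.54 over the members and 0.04 over all genes. Col1a1 fell by 2.67 (SE 0.65, adjusted p 0.0092), to a mean of 659.4 ± 895.3 in KO_Adult, against 2135 ± 746.7 in WT_Adult (SD, n = 5 each). Col15a1 fell by 2.01 (SE 0.45, adjusted p 0.00566), with 93.72 ± 58.39 in KO_Adult and 380.5 ± 62.85 in WT_Adult. Serpinh1 fell by 1.37 (SE 0.32), Plod3 by 1.24 (SE 0.21, adjusted p 0.00096) and Plod1 by 0.92. The basement membrane pair fell too, Col4a2 by 0.86 and Col4a1 by 0.72, and Col5a3 by 0.65. Col3a1 differed by 0.08 (SE 0.28, adjusted p 0.863) and Col1a2 by -0.25 (SE 0.34, adjusted p 0.634). For 4 members (Col15a1, Plod1, Plod3 and P4ha2) every KO_Adult array was below every WT_Adult array, against 5.59% of all genes. P4ha2 itself missed the threshold (-0.45, adjusted p 0.0816). The count of 8 was 13 without KO_Adult replicate 2.

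With the means taken from the arrays without poly-A controls, 2 of KO_Adult and 5 of WT_Adult, and the spread estimated from all 19 arrays, 1 member passed, against 3.07% of all genes lower and 3.55% higher. This was Plod3, which fell by 0.95 (SE 0.27, adjusted p 0.0421). Col15a1 differed by -1.13 (SE 0.52, adjusted p 0.192), Col1a1 by -0.62 (0.425), Serpinh1 by -0.56 (0.286), Col4a1 by -0.46 (0.121) and Col4a2 by -0.37 (0.335). The signs of all 8 members that fell were kept, and 7 of the 8 calls were not. Col3a1 and Col1a2 read 0.51 and 0.43 in this comparison, neither past the threshold. When the spread too was estimated only from arrays without controls no member passed, and Plod3 had an adjusted p of 0.0929.

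The markers of other cell types give the company in which these values stood. Of 6 endothelial markers 5 fell between KO_Adult and WT_Adult, with summed levels of 1370 to 2080 in KO_Adult and 3800 to 4390 in WT_Adult. Among them Tie1 fell by 1.98 and Pecam1 by 1.63. With means from the arrays without controls 3 of the 6 fell, with a median log2 difference of -0.75. None of 8 fibroblast markers passed, though Dpt rose by 1.13 on the arrays without controls, and their sum was 11400 to 19500 in KO_Adult and 11800 to 14300 in WT_Adult. None of the 4 tested tendon markers passed either. The part of endothelial cells in the lower Col4a1, Col4a2 and Col15a1 was not tested.

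In aged mice, KO_Aged against WT_Aged, the calls ran the other way: 9 of 29 members rose and none fell (limma, adjusted p under 0.05), against 17.1% of all tested genes higher and 12.4% lower. At an unadjusted p under 0.05, 11 members were higher and 0 lower, again with no share over all genes given at this rule. The median log2 difference was 0.47 over the members and 0.08 over all genes. Of the 9, 8 were chains and Plod1 was the only enzyme. Col1a1 rose by 3.71 (SE 0.69, adjusted p 0.000683), with means of 1096 ± 460.9 in KO_Aged (SD, n = 4) and 70.93 ± 21.45 in WT_Aged (SD, n = 5). Col15a1 rose by 2.58 (SE 0.48, adjusted p 0.000684), and Col3a1 by 1.86 (SE 0.29, adjusted p 0.000197), with 8490 ± 1608 in KO_Aged and 2432 ± 583.1 in WT_Aged. Col6a1 rose by 1.31, Col5a2 by 1.10, Col4a2 by 0.96, Col5a1 by 0.82, Plod1 by 0.72 and Col4a1 by 0.59. For 10 members (these 9 and Loxl1) every KO_Aged array was above every WT_Aged array, against 18.4% of all genes. The crosslinking and hydroxylating enzymes beyond Plod1 gave no call with the probe sets used, with Lox at -0.20 (adjusted p 0.729) and P4ha1 at 0.01. Nor did the chaperone Serpinh1, at -0.11. The dimmer P4ha1 probe set, 1426519_at, read 154 to 463 in KO_Aged and 105 to 233 in WT_Aged. With each probe set fitted separately, 7 of the 25 members with several had some called and others not.

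With the control split as a term none of these 9 stayed past the threshold, and 1 other member did, against 2.96% of all genes higher and 2.53% lower. Col1a1 stood at 0.30 (SE 0.62, adjusted p 0.802), Col15a1 at 1.12 (SE 0.70, 0.329) and Col3a1 at 1.15 (SE 0.46, 0.135), while Col6a1 (-0.29) and Plod1 (-0.20) had the opposite sign. Serpinh1 fell by 1.47 in this fit (SE 0.42, limma adjusted p 0.0496), read from its probe set 1450843_a_at. Its other probe set, 1456733_x_at, read 1830, 2240, 2050 and 1450 on KO_Aged arrays. On WT_Aged arrays that one read 927, 1470, 1010, 1430 and 986, so the fall is shown for 1 of 2 probe sets. The tendon marker Comp fell by 2.74 in the same fit. Without the 2 KO_Aged arrays of high Gapdh ratio and without the term, 3 members rose: Col1a1 by 3.24, Col15a1 by 1.85 and Col3a1 by 1.79. No share over all genes is given for that fit. On all arrays and without the term, the fibroblast markers moved both ways between the aged genotypes. Among 8, Dpt was higher by 0.98 and Clec3b and Pdgfrb lower by 2.15 and 1.26. Sums of the 8 were 13800 to 19400 in KO_Aged and 9900 to 15800 in WT_Aged. With the term none of the 8 rose and 1 fell, and their median log2 difference was -0.21, against 0.41 without it. Their part in the collagen values was not tested.

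**Figure D4:**
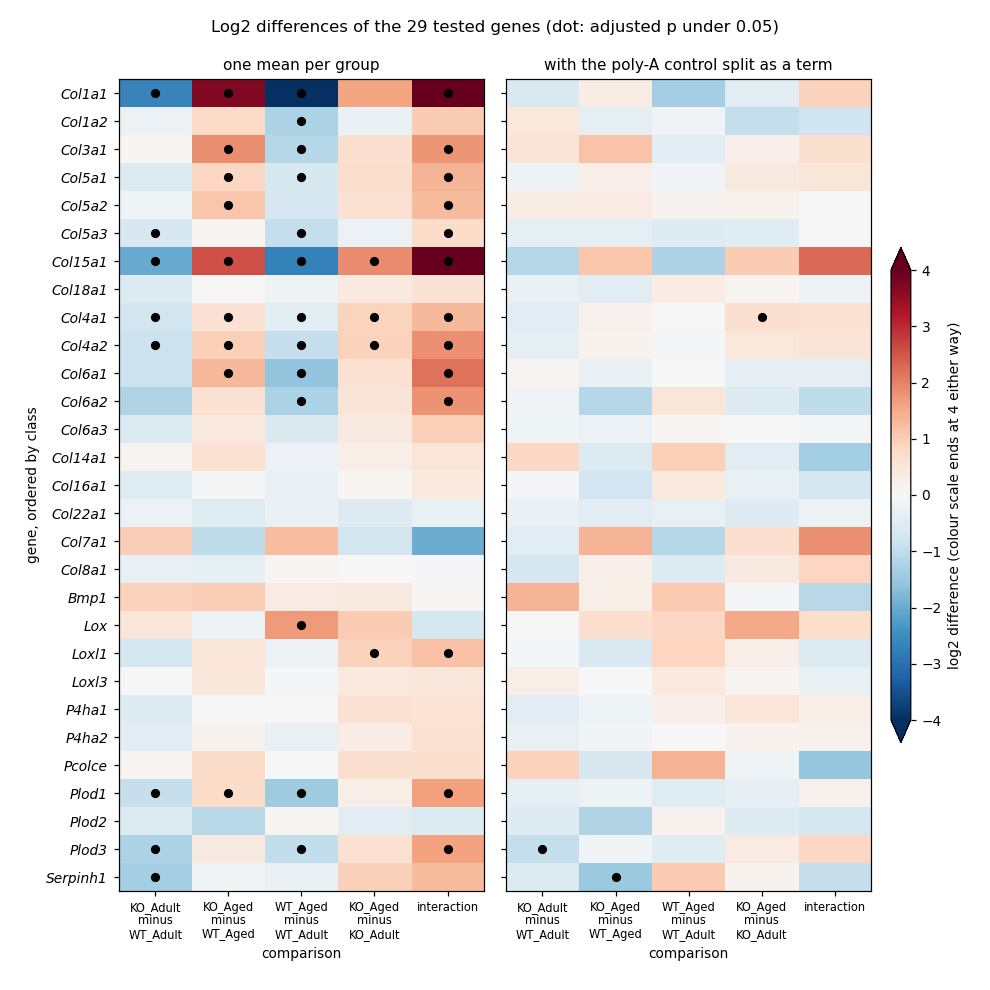
Log2 difference of the 29 tested members in each comparison, as colour (scale ending at 4 either way), with a dot at an adjusted p under 0.05. The 9 members that rose in KO_Aged against WT_Aged and the 12 that fell in WT_Aged against WT_Adult have no dot in the same columns of the right panel, whose fit has the control split as a term.

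Age in wild-type muscle, WT_Aged against WT_Adult, was called mostly downward: 12 of 29 members fell and 1 rose (limma, adjusted p under 0.05), against 21% of all tested genes lower and 18% higher. The median log2 difference was -0.31 over the members and -0.03 over all genes, and -0.65 over the 18 chains. Col1a1 fell by 4.79 (SE 0.65, adjusted p 6.75e-05) and Col15a1 fell by 2.70 (SE 0.45). Col6a1 fell by 1.58, Col1a2 and Col6a2 by 1.28 each and Col3a1 by 1.14. Col5a3 fell by 0.96, Col4a2 by 0.91, Col5a1 by 0.65 and Col4a1 by 0.43. Of the lysyl hydroxylases Plod1 fell by 1.41 (SE 0.21, adjusted p 0.000149) and Plod3 by 0.99, and Plod2 differed by 0.09 (SE 0.64). Lox was the member that rose, by 1.70 (SE 0.37, adjusted p 0.0023), with 766 ± 299 in WT_Aged and 252.1 ± 134.1 in WT_Adult (SD, n = 5 each). Col5a2 missed the threshold (-0.66, adjusted p 0.0502), as did Col7a1 (1.24, 0.0752). For 11 members every WT_Aged array was below every WT_Adult array, against 17.5% of all genes.

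With the control split as a term no member passed, against 0.0672% of all genes higher and 0.0269% lower. Unadjusted, 4 of 29 members had a p under 0.05 (limma), a rule at which no share over all genes is given. There Col1a1 stood at -1.37 (SE 0.61, adjusted p 0.319), Col15a1 at -1.24 (0.42), Plod1 at -0.48 (0.406) and Lox at 0.84 (SE 0.61, 0.536), and Col6a1 (0.03) and Col6a2 (0.48) had the opposite sign. In the fit without the term, markers of other cells differed between the wild-type ages, neutrophil markers among them. All 4 neutrophil markers rose, S100a9 by 3.19 and S100a8 by 2.84, with sums of 2360 to 13000 in WT_Aged and 443 to 1660 in WT_Adult. Of 6 endothelial markers 3 fell, with sums of 1830 to 2640 in WT_Aged and 3800 to 4390 in WT_Adult that did not overlap. Of 4 tested smooth muscle and pericyte markers 2 fell, and sums over all 5 measured were 5540 to 10800 in WT_Aged and 5570 to 12600 in WT_Adult. With the term no neutrophil, endothelial or smooth muscle and pericyte marker passed, with median log2 differences of 2.46, -0.13 and -0.42. The part of these cells in the collagen and Lox values was not tested.

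Aged and adult muscle without desmin were compared as well. Of 29 members 4 rose and none fell (limma, adjusted p under 0.05), against 3.81% of all tested genes higher and 3.77% lower. Unadjusted, 12 members were higher and 0 lower at a p under 0.05, a rule at which no share over all genes is given. Col15a1 rose by 1.89 (SE 0.48, adjusted p 0.0234), Loxl1 by 0.93 (SE 0.25, 0.0334), Col4a2 by 0.91 (SE 0.23, 0.023) and Col4a1 by 0.89 (SE 0.16, 0.00398). Col4a1 averaged 4307 ± 423.5 in KO_Aged (SD, n = 4) and 2469 ± 542.2 in KO_Adult (SD, n = 5). With means from the arrays without controls, 4 of KO_Aged and 2 of KO_Adult, and the spread from all 19 arrays, 1 of the 4 passed, against 4.83% of all genes higher and 5.16% lower: Col4a1 rose by 0.63 (SE 0.18, adjusted p 0.0392). Lox differed there by 1.53 (SE 0.48, adjusted p 0.0505), Col15a1 by 1.01 (0.213) and Col4a2 by 0.42 (0.241). When the spread too came only from arrays without controls none of the 4 passed (Col4a1 adjusted p 0.143), and none did when only KO_Aged and KO_Adult were fitted. Single arrays decided the count of 4, which was 1 without KO_Adult replicate 3 or KO_Aged replicate 3 and 2 without KO_Adult replicate 4, KO_Adult replicate 5 or KO_Aged replicate 2. Without both KO_Aged arrays of high Gapdh ratio it was 0. In the first fit 2 of 4 neutrophil, 1 of 4 macrophage and 1 of 6 endothelial markers rose and 2 of 8 fibroblast markers fell. Neutrophil sums were 6830 to 12600 in KO_Aged and 412 to 4340 in KO_Adult. Fibroblast sums were 13800 to 19400 in KO_Aged and 11400 to 19500 in KO_Adult. With means from the arrays without controls 1 neutrophil and no macrophage or endothelial marker rose, and 2 fibroblast markers fell. The part of these cells was not tested.

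The genotype by age interaction asked whether the knockout difference was the same at both ages. It is the signed difference KO_Aged minus WT_Aged less the signed difference KO_Adult minus WT_Adult. It was positive for 13 of 29 members and negative for none (limma, adjusted p under 0.05), against 14.5% of all tested genes positive and 10.8% negative. Unadjusted, 16 were positive and 1 negative at a p under 0.05, with no share over all genes given. For 12 of the 13 the aged difference was above 0 and the adult one below it, so a positive value does not mean a larger difference in size. Plod3, for example, differed by 0.37 in aged and by -1.24 in adult muscle and Col5a3 by 0.08 and -0.65, while Col3a1 differed by 1.86 in aged and by 0.08 in adult muscle. The values were 6.38 for Col1a1 (SE 0.94, adjusted p 0.000219), 4.59 for Col15a1 (SE 0.65, 0.000181), 2.18 for Col6a1 and 1.82 for Col4a2. They were between 0.73 and 1.80 for Col6a2, Col3a1, Plod1, Plod3, Col5a1, Col4a1, Col5a2, Loxl1 and Col5a3. With the control split as a term no member passed, against 0.0134% of all genes positive and 0.0134% negative. Unadjusted, 1 of 29 members had a p under 0.05 (limma), with no share over all genes given. Col15a1 then stood at 2.25 (SE 1.07, adjusted p 0.3), Col1a1 at 0.91 (SE 0.95, 0.613) and Plod3 at 0.82 (SE 0.55, 0.434). Without the 2 KO_Aged arrays of high Gapdh ratio the count of 13 was 7.

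KO_Adult and WT_Aged both have arrays with controls, 3 and 5, which were compared with the spread from all 19 arrays. Among these the control signal does not divide the groups, though age differs along with genotype. Here 2 of 29 members fell and none rose, against 4.75% of all tested genes lower and 4.57% higher. Unadjusted, 5 were lower and 1 higher at a p under 0.05 (limma), with no share over all genes given. Serpinh1 fell by 1.61 (SE 0.27, limma adjusted p 0.00139) and Loxl1 by 0.89 (SE 0.19, adjusted p 0.00726), and for both every KO_Adult array was below every WT_Aged array. The chains gave no call: Col1a1 differed by 0.75 (SE 0.40, adjusted p 0.26), Col3a1 by 0.94 (SE 0.30, 0.0546), Col15a1 by 0.11 (0.913) and Col4a1 by -0.47 (SE 0.15, 0.0657). For Col15a1, whose difference was -2.01 between the adult genotypes, this difference was smaller than its SE of 0.45.

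Several members have more than 1 probe set, and these did not always tell the same story. The 46 members have 76 probe sets, and 25 have several. When each probe set was fitted separately, no member was called in both directions in any of the 5 comparisons, but between WT_Aged and WT_Adult 9 members had some probe sets called and others not. For Col1a1 the probe set used above, 1423669_at, fell by 4.79 between WT_Aged and WT_Adult. The other, 1455494_at, read 243, 217, 204, 253 and 129 on WT_Aged arrays and 501, 566, 592, 365 and 282 on WT_Adult arrays. Its difference was -1.02 (SE 0.46, adjusted p 0.118), which missed the threshold. Between KO_Adult and WT_Adult it was -0.19 (adjusted p 0.847), so the fall of Col1a1 there rests on 1 of its 2 probe sets. Between KO_Aged and WT_Aged it was 0.69 (adjusted p 0.355) with 1455494_at and 3.71 with 1423669_at, and between KO_Adult arrays with and without controls -0.42 and -3.42. On KO_Adult replicate 5 the dimmer probe set gave its highest value of all arrays (910), while the brighter gave one of its low ones (160).

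The disagreement ran the other way for P4ha1 and Col4a1. The dimmer P4ha1 probe set, 1426519_at, fell by 1.76 between WT_Aged and WT_Adult (adjusted p 0.00778), reading 105 to 233 in WT_Aged and 467 to 714 in WT_Adult, where the brighter 1452094_at differed by 0.03. Between KO_Adult arrays with and without controls the dimmer fell by 1.98 and the brighter differed by -0.16. For Col4a1 the dimmer 1426348_at fell by 1.55 between WT_Aged and WT_Adult and the brighter 1452035_at differed by -0.43, and across the control split the differences were -1.78 and -0.43. For Pcolce the dimmer 1448433_a_at read 285 to 532 in WT_Aged and 604 to 1160 in WT_Adult, with no overlap and a difference of -0.88 (adjusted p 0.0575), where the brighter 1437165_a_at differed by 0.02. For Serpinh1 in KO_Adult against WT_Adult, 1450843_a_at fell by 1.37 and 1456733_x_at differed by -0.40 (adjusted p 0.432). Among the KO_Adult and WT_Aged arrays with controls the same pair gave -1.61 and -0.40 (adjusted p 0.636), so the lower Serpinh1 there rests on 1 of its 2 probe sets.

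**Figure D5:**
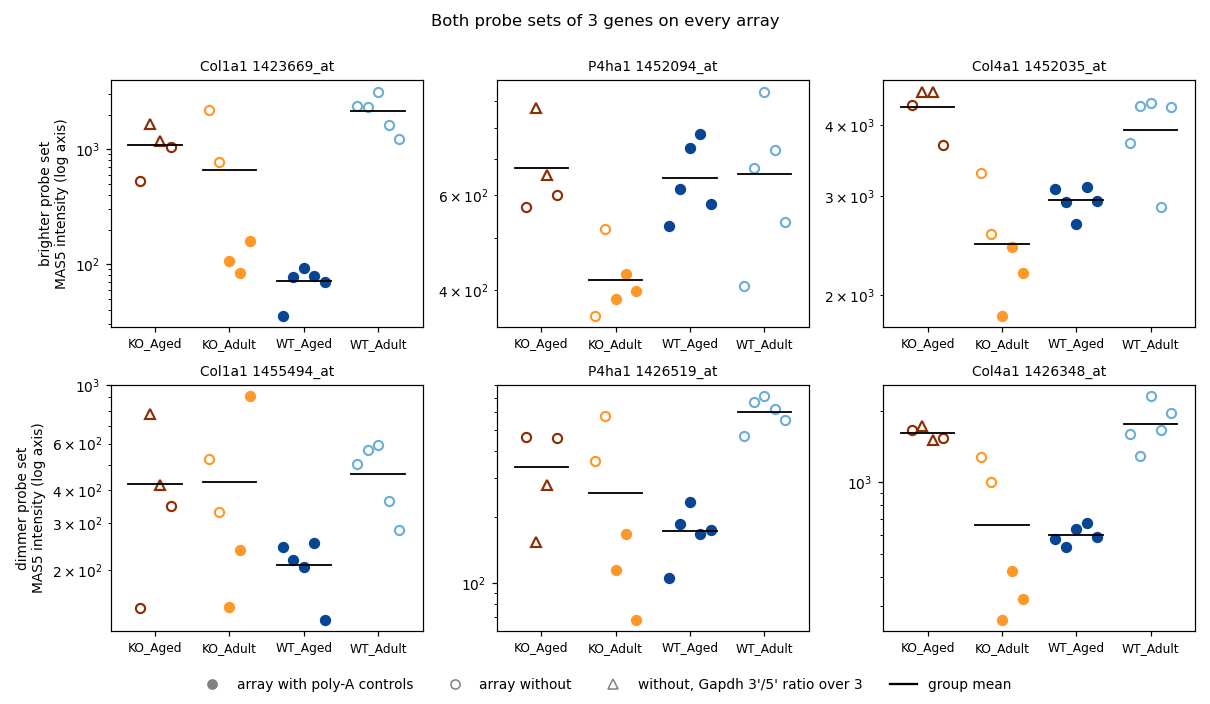
Deposited MAS5 intensity (log axis) of the brighter probe set (upper panels) and the dimmer one (lower panels) of Col1a1, P4ha1 and Col4a1 on each array, by group, with filled circles for arrays with poly-A controls, triangles for a Gapdh ratio over 3 and bars for group means. For Col1a1 the arrays with controls are set apart by the brighter probe set and less so by the dimmer, and for P4ha1 and Col4a1 the dimmer one sets them further apart.

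Other genes of the pathway were read from lists that held none of the 46 members. Of 15 tested genes for folding, modification and secretion, 1 rose and 2 fell in KO_Adult against WT_Adult: Fkbp7, a prolyl isomerase, rose by 0.65, and the collagen galactosyltransferase Colgalt1 and the matrix protein Sparc fell by 0.93 and 0.85. With the control split as a term neither fall passed (Colgalt1 -0.20, Sparc -0.40), and 2 genes rose, Sec24d by 1.08 and Fkbp7 by 0.93. In KO_Aged against WT_Aged 2 rose, Colgalt1 by 1.12 and Fkbp7 by 0.60. In WT_Aged against WT_Adult 4 fell, with Colgalt1 at -1.49 and P3h1, a prolyl 3-hydroxylase, at -0.91, and 1 rose. With the control split as a term none of the 15 passed in the comparisons of the aged genotypes or of the wild-type ages. Across the split itself Colgalt1 fell by 1.21.

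Genes of collagen breakdown were called in both directions. Of 16 tested proteases and inhibitors 3 rose and 3 fell in KO_Adult against WT_Adult. Mmp3 (stromelysin 1) rose by 1.69, with 230 to 1240 in KO_Adult and 107 to 240 in WT_Adult, and Timp4, an inhibitor of matrix metalloproteinases, fell by 1.24. With means from the arrays without controls 4 of the 16 rose and none fell, among them Mmp3 by 2.25 (SE 0.59, limma adjusted p 0.0319) and the gelatinase Mmp2 by 1.04 (SE 0.26, adjusted p 0.0258). In KO_Aged against WT_Aged 5 rose and 3 fell, among them Mmp2, which rose by 1.39, and Timp4, which fell by 2.67, with Timp4 at 183 to 858 in KO_Aged and 1420 to 3010 in WT_Aged. With the split as a term Timp4 alone passed there, at -2.31 (SE 0.66, adjusted p 0.0488).

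Of 5 tested collagen receptors Cspg4 (NG2), a proteoglycan that binds type VI collagen, was the only one called. It rose by 1.66 in KO_Adult and by 1.28 in KO_Aged, each against wild-type muscle of the same age. With the split as a term its aged difference was 2.48 (SE 0.43, limma adjusted p 0.00595) and its adult difference 0.94 (adjusted p 0.0873). Of 19 tested genes of fibrogenic signalling 1 rose and 2 fell in KO_Adult against WT_Adult. Ltbp1, which stores latent TGF-beta in the matrix, rose by 0.95, and its relative Ltbp4 and Tgfb1 fell by 1.85 and 1.55. In KO_Aged against WT_Aged 5 rose and 4 fell, and in WT_Aged against WT_Adult 4 rose and 5 fell. With the split as a term these counts were 0 and 1, and 0 and 0. In the adult genotypes Ltbp4 (-0.83, adjusted p 0.104) and Tgfb1 then missed the threshold, while Ltbp1 rose by 1.09 (adjusted p 0.0161) and Pdgfa, a growth factor for fibroblasts, fell by 0.95 (adjusted p 0.0358).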

How the data were processed

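The authors deposited 1 intensity per probe set and array on a linear scale, and the submitters' processing notes name MAS5, with no version in the sources used here. Per the labels' protocols, biotinylated cRNA was made from total RNA. The table holds 22690 probe sets, of which 20380 have 1 gene symbol. For this report values were transformed to log2(intensity + 4.76), the pseudocount being the 10th percentile of all values, and quantile normalized. Each gene was read from its probe set of highest mean, and the brightest 60% of 12393 genes, 7436 in number, were tested. Group means were fitted over all 19 arrays together with lmFit and eBayes of limma 3.58.1 (R 4.3.3). Calls were made below 0.05 after Benjamini-Hochberg adjustment of p-values across all tested genes. Counts of members whose groups do not overlap were read from the normalized values, and overlap in the array by array descriptions from the deposited ones. Log2 differences understate the change of dim genes. A second fit gave KO_Adult arrays with and without poly-A controls a mean each, which equals adding the split as a term, and gave the comparisons within arrays with or without controls. The number of arrays limits the precision. The scripts were tested on simulated data, and promoter stretches and gene positions are RefSeq's for GRCm38.p6. Figures used Python 3.11.15 and matplotlib 3.10.9. The members, the lists, the split and the alternatives were chosen with earlier results of these data known. Members described array by array were the 15 named in that choice and those with the 4 largest called rises and falls of each comparison; from the other lists up to 4 genes of smallest p were named.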

Additional observations from a re-analysis of the deposited data

Results flagged for a closer look

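The 29 tested members in 4 groups make 116 sets of arrays, and in 4 of these 1 array stood far from the others; chance flags about 1 set in 20. Col1a1 read 35.6 on WT_Aged replicate 1, against 70.3 to 93.2 on the other WT_Aged arrays. Col1a2 read 2190 on KO_Aged replicate 1, against 3520 to 4140 on the other KO_Aged arrays. Col5a3 read 530 on KO_Aged replicate 1, against 335 to 391, and 507 on WT_Adult replicate 4, against 773 to 818 on the other WT_Adult arrays.

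For 13 members the signed knockout difference was higher in aged than in adult muscle by the interaction of genotype and age. For 12 of them it was above 0 in aged and below 0 in adult muscle, and for Col3a1 above 0 in both. On the log2 scale the aged minus the adult difference was 6.38 for Col1a1, 4.59 for Col15a1, 2.18 for Col6a1, 1.82 for Col4a2, 1.80 for Col6a2, 1.77 for Col3a1, 1.64 for Plod1, 1.61 for Plod3, 1.35 for Col5a1, 1.31 for Col4a1, 1.26 for Col5a2, 1.16 for Loxl1 and 0.73 for Col5a3. None passed with the poly-A control split as a term.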

How the results depend on the processing

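The members called numbered 8 (KO_Adult against WT_Adult), 9 (KO_Aged against WT_Aged), 13 (WT_Aged against WT_Adult), 4 (KO_Aged against KO_Adult) and 13 (interaction). No call changed direction under another normalization, pseudocount, filter, probe set rule, threshold, variance model or array weighting. Counts that moved by over 1.5 times follow. Shares of all genes called are not given for these settings or for arrays left out, here or above. The counts therefore do not set the members against other genes. For KO_Adult against WT_Adult they were 5 with median centring, 13 without normalization between arrays and 18 with array weights. For KO_Aged against KO_Adult they were 2 with median centring, 1 at adjusted p under 0.01, 11 with array weights and 0 with only those groups fitted. The interaction had 8 at adjusted p under 0.01. With median centring the median over all genes was 0.19 in KO_Adult against WT_Adult and -0.13 in the interaction; with quantile normalization both were 0.04. Leaving out each array in turn gave 7 to 13 members for KO_Adult against WT_Adult (13 without KO_Adult replicate 2), 6 to 10 for KO_Aged against WT_Aged, 10 to 13 for WT_Aged against WT_Adult, 1 to 6 for KO_Aged against KO_Adult and 11 to 16 for the interaction.

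The poly-A control split as a term gave 1, 1, 0, 1 and 0 called members in the order above. The 1 for KO_Aged against WT_Aged was none of the 9. Fitting only arrays without controls, with no other array in the spread, gave 0 in each comparison that allows it. Without the 2 arrays of Gapdh ratio over 3 the counts were 3 for KO_Aged against WT_Aged, 0 for KO_Aged against KO_Adult and 7 for the interaction, again with no share over all genes beside them. With both changes the counts were 1, 0, 0, 1 and 0 in the order of the 5 comparisons, and the 1 for KO_Aged against KO_Adult was none of the 4. With the term, signs turned in KO_Aged against WT_Aged for Col6a1 (-0.29) and Plod1 (-0.20), in WT_Aged against WT_Adult for Col6a1 (0.03) and Col6a2 (0.48), and in the interaction for Col6a1 (-0.39), Col6a2 (-1.01) and Loxl1 (-0.56). With both changes they turned in KO_Aged against WT_Aged for Col1a1 (-0.18), Col4a2 (-0.05), Col5a1 (-0.13), Col6a1 (-0.85) and Plod1 (-0.26), in WT_Aged against WT_Adult for Col6a1 (0.03) and Col6a2 (0.48), and in the interaction for Col5a2 (-0.21), Col6a1 (-0.95), Col6a2 (-1.55) and Loxl1 (-0.66). The cause was not tested. The term rests on 3 against 2 KO_Adult arrays, so a lost call there does not show that values were equal. No paired analysis was possible because replicates were numbered in accession order and the codes in the titles, whose meaning is not stated, link the groups by at most 1 shared code, that of KO_Aged replicate 4 with WT_Aged replicates 4 and 5.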
